A study of Homo sapiens with 66 samples.

Results

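The genes described here encode the proteasome, the factors that assemble and activate it, and NFE2L1, a transcription factor of its subunit genes. They were chosen by symbol from the gene count table: protein-coding genes whose symbols start with PSMA, PSMB, PSMC, PSMD, PSME, PSMF or PSMG, plus POMP and NFE2L1. The rule found 51 of 20167 genes, of which 49 had enough counts to be tested in every comparison. PSMA8, a testis subunit of the alpha ring, had 8 counts and PSMB11, the thymus-specific catalytic subunit, had 4 counts over all libraries, so neither was tested. PSMB3, a structural subunit of the beta ring, was not analysed here.

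The study used polyA RNA sequencing of the multiple myeloma cell line AMO1 (AMO-1 WT in the labels) and of CFZ-resistant L363 cells (L363-CFZr). Multiple myeloma is a cancer of plasma cells, and carfilzomib (CFZ) is a drug that binds the catalytic sites of the proteasome. Both lines were exposed for 6 h or 24 h to DMSO, NCP26, NCP22, halofuginone (HFG) or halofuginol, each compound at 1 µM, and AMO1 cells also to CFZ, for which the study's legend gives 10 nM. NCP26 and HFG inhibit prolyl-tRNA synthetase (ProRS), the enzyme that loads proline onto its tRNA. NCP22, which the study calls less potent than NCP26, and halofuginol, an analogue of HFG, are directed at the same enzyme. There were 22 groups of 3 libraries, 12 groups of AMO1 and 10 of L363-CFZr, which makes 66 libraries. The study describes its experiments in general as biological triplicates, and neither the labels nor its RNA methods say how the 3 libraries of a group were cultured, so p-values measure the spread between these libraries, part of which may be technical. The resistant cells are 1 line, and untreated parental L363 cells were not analysed here, so resistance and cell line cannot be told apart. In the study's RNA methods, written for AMO1 cells, the samples of 6 h were frozen overnight and those of 24 h were kept on ice. Time and storage thus cannot be told apart in AMO1 either, and the handling of the L363-CFZr samples is not stated there.

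As background, the 26S proteasome degrades proteins tagged with ubiquitin. Its 20S core is a barrel of alpha and beta rings, with 3 catalytic subunits (PSMB5, PSMB6 and PSMB7) that interferon-induced cells replace by the immunoproteasome subunits PSMB8, PSMB9 and PSMB10. The 19S regulator, made of a base with ATPases and a lid, recognises and unfolds the substrate, while PA28 (PSME1 to PSME3) and PA200 (PSME4) are other caps. NFE2L1 is held at the endoplasmic reticulum and destroyed there by the proteasome, and when the proteasome is blocked it is released to the nucleus, where it switches on subunit genes through antioxidant response elements. Plasma cells secrete large amounts of antibody and depend on this machinery.

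Library totals ran from 1666325 to 6596543 counts (median 3165566), and the 51 genes took between 0.40% and 0.911% of them. Plasma cell markers were present in both lines under DMSO, their levels given in CPM (counts scaled to a common library total). JCHAIN, a part of secreted antibodies, had a median of 4150 CPM in AMO1 and 5010 CPM in L363-CFZr. XBP1 (322 and 810 CPM), MZB1, TNFRSF17 and PRDM1 also had higher medians in L363-CFZr. SDC1 (2900 and 766 CPM), POU2AF1 (702 and 160 CPM), CD38, IRF4 and SLAMF7 had higher medians in AMO1. The DMSO libraries of the lines overlapped for JCHAIN, MZB1, TNFRSF17, PRDM1, IRF4 and SLAMF7, and these levels were not tested. The sum of these markers ran from 4840 CPM (AMO1 with HFG, 6 h) to 10500 CPM (AMO1 with DMSO, 6 h). In AMO1 with NCP26 at 6 h it was 5250 CPM. The summed level of 7 markers of other cells stayed between 0.503 and 4.56 CPM in all 22 groups. The sample numbers in the file's column names run 3 times from 1 to 22 and so split the libraries into 3 sets of 22. The first set held all AMO1 libraries of 6 h, AMO1 DMSO at 24 h and AMO1 CFZ replicate 1 at 24 h. The second held the other AMO1 libraries of 24 h and L363-CFZr with DMSO, NCP26 and 2 replicates of NCP22 at 6 h. The third held the rest of L363-CFZr. Comparisons across sets are named as such below. In L363-CFZr at 6 h, NCP22 replicate 3 was in another set than DMSO, NCP26 and the other NCP22 libraries, so both comparisons that use NCP22 there cross sets in part. AMO1 CFZ replicate 2 and L363-CFZr DMSO replicate 2, both at 24 h, stood apart: their median gene lay 0.347 and 0.419 log2 units from the mean of the other libraries of their group, against at most 0.246 for any other library. Counts of called members that rest on them are given with and without them.

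The first comparison asked how these genes answered CFZ in AMO1 cells. At 6 h the constitutive proteasome rose as a block. Of the 30 tested genes of the alpha ring, the beta ring and the 19S base and lid, 28 were called higher and 0 lower, with a median change of 0.55 on the log2 scale. Called here means an adjusted p below 0.05 in edgeR's quasi-likelihood test over all genes tested. Over all 49 members 32 were higher and 2 lower (median 0.39), against 14.1% of all genes called higher and 12.8% called lower and a median of -0.006 over all genes.

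**Figure D1:**
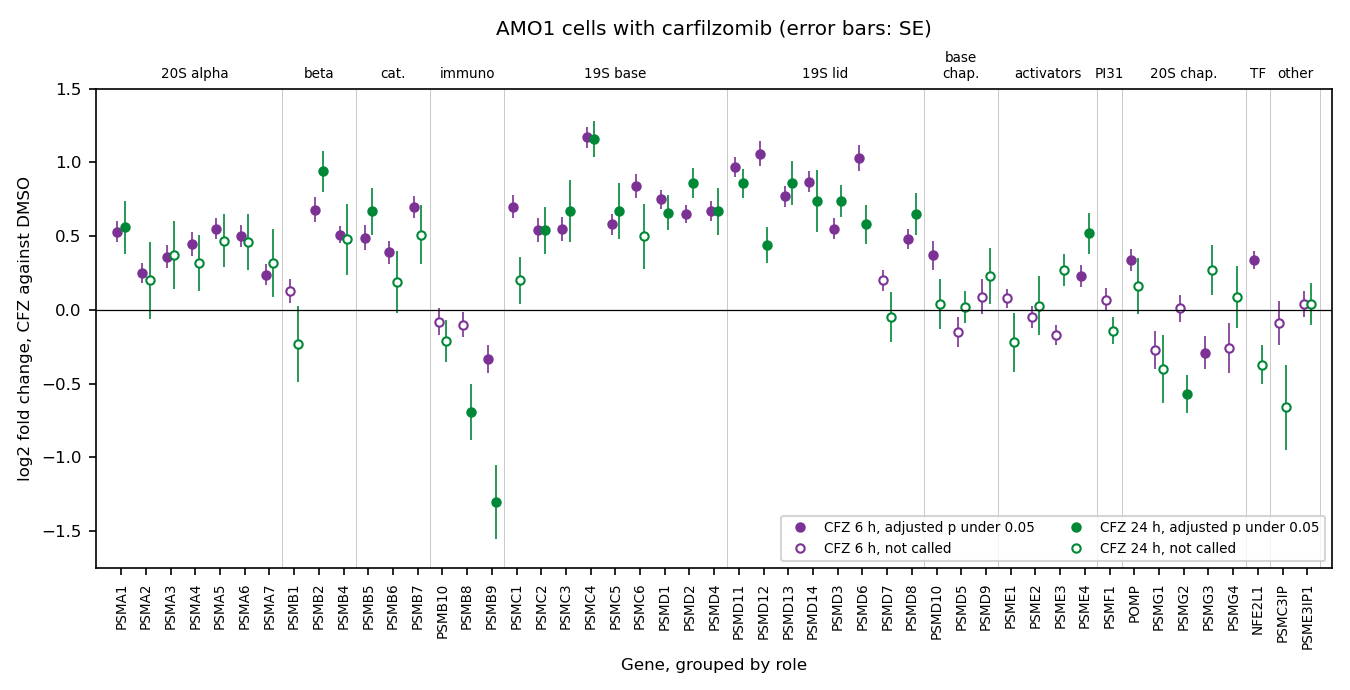
Log2 fold change (y axis, with SE) of the 49 tested genes in AMO1 cells given CFZ against DMSO at 6 h (purple) and 24 h (green), genes on the x axis by role; filled points passed the adjusted p threshold. At 6 h 28 of the 30 constitutive 20S and 19S genes are filled and above 0, while PSMB9 lies at -0.33 at 6 h and -1.30 at 24 h.

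The 19S regulator moved most. PSMC4 (ENSG00000013275, chr19:39971165-39981764, GRCh38), an ATPase of the base, was at 154.4, 148.0 and 138.6 CPM in the DMSO libraries of 6 h and at 315.4, 325.8 and 354.0 CPM with CFZ. Each CFZ library was thus above each control, and the means stood in a ratio of 2.26 (log2 change 1.17 ± 0.072 SE, n = 3, adjusted p = 4.14e-11, edgeR). PSMD12, a lid subunit, went from 99.84, 120.0 and 114.8 CPM to 243.1, 218.1 and 237.7 CPM (1.06 ± 0.082, adjusted p = 1.78e-09, edgeR). PSMD6, also of the lid, rose by 1.03 ± 0.088 and PSMD4, the ubiquitin receptor of the base, by 0.67 ± 0.066. In the base 9 of 9 genes were called higher and in the lid 7 of 8, the exception being PSMD7, at 0.20 ± 0.074 with an adjusted p of 0.0502 in edgeR.

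The 20S core rose less. Of the 7 tested alpha genes 7 were called higher, with a median of 0.45, and PSMA3 went from a mean of 112.9 ± 1.77 CPM to 145.8 ± 6.97 CPM (SD, n = 3; log2 change 0.36). The chymotrypsin-like subunit PSMB5 (chr14:23016543-23035230) is a site that CFZ binds. It was at 80.01, 93.1 and 81.51 CPM under DMSO and at 120.2, 120.8 and 118.9 CPM with CFZ (0.49 ± 0.085). The caspase-like PSMB6 and the trypsin-like PSMB7 changed by 0.39 ± 0.078 and 0.70 ± 0.075, so all 3 constitutive catalytic genes were called higher. PSMB1 at 0.13 was the beta ring gene that did not pass.

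The immunoproteasome genes were not among those that rose. PSMB9 (chr6:32844136-32859851) was at 109.1, 105.7 and 103.8 CPM under DMSO and at 81.82, 74.38 and 97.7 CPM with CFZ, a fall of every CFZ library below the controls (-0.33 ± 0.095, adjusted p = 0.0131, edgeR). That call was lost without CFZ replicate 1 (-0.30) or replicate 2 (-0.24). PSMB8 (-0.10 ± 0.084) and PSMB10 (-0.08 ± 0.092) overlapped between groups and did not pass. The PA28 genes that partner the immunoproteasome, PSME1 (0.08 ± 0.065) and PSME2 (-0.05 ± 0.074), did not pass either, whereas PSME4, the PA200 cap, was called higher at 0.23 ± 0.076. The assembly genes split: POMP, which matures the 20S core, rose by 0.34 ± 0.075, PSMD10, a chaperone of the 19S base, rose by 0.37 ± 0.10, and PSMG1, a chaperone of the alpha ring, was at -0.27 ± 0.13 (adjusted p = 0.128, edgeR). PSMG3, another 20S chaperone, was the second member called lower, at -0.29 ± 0.11.

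Since NFE2L1 acts through antioxidant response elements, the core letters of that element, TGACNNNGC, were sought on both strands in RefSeq promoters (GRCh38.p14, 250 bases before to 50 after each start). A promoter was found for 45 of the 51 genes, and PSMA7, PSMB1, PSMB6, PSMB7, PSMD4 and PSMG3 had none in the table. The letters were present for 14 of the 45 genes (31.1%), for 6 of 26 constitutive 20S and 19S genes (23.1%) and for 18.1% of 14958 genes of the count table with a promoter. The 250 bases before the start are shown for a pair of lid genes that rose most, 1 with and 1 without the letters, and for PSMG1 and PSMB9, which hold the letters and were not called higher. For PSMC4, whose match lies 27 bases after the start, only 30 bases around it are given. Capitals mark the letters on either strand, and each run is written 5′ to 3′ on the gene's own strand. The windows are, in order, chr17:67366578-67366827 (minus strand), chr3:64023495-64023744 (minus), chr21:39183452-39183701 (minus), chr6:32853942-32854191 (plus) and chr19:39971182-39971211 (plus).
PSMD12: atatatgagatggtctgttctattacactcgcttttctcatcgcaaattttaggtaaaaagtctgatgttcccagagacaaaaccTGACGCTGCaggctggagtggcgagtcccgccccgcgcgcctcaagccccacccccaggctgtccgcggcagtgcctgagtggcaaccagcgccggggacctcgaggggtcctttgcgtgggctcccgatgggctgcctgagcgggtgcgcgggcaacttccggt
PSMD6: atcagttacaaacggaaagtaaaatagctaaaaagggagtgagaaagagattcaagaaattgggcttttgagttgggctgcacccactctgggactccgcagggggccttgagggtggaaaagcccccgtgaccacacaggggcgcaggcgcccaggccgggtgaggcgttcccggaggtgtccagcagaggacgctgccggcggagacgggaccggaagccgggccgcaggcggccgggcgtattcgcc
PSMG1: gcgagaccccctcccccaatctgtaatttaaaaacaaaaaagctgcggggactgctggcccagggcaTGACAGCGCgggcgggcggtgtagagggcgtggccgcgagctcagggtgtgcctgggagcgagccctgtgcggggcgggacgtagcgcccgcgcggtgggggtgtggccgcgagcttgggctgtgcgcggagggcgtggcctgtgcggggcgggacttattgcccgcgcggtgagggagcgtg
PSMB9: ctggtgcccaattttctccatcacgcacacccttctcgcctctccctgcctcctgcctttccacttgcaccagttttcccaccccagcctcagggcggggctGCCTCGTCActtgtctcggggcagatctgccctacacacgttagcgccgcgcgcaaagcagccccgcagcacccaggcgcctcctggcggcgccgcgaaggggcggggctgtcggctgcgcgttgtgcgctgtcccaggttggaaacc
PSMC4: acagaggccgGCTTGGTCActatggaggag
A match is a run of letters and not a binding site, and binding was not measured.

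At 24 h with CFZ the picture was wider in spread. Of the 49 members 18 were called higher and 3 lower (median 0.32), against 13.1% and 14% of all genes, and 17 of the 30 constitutive genes were called higher. Without CFZ replicate 2, which stood apart, 34 members were called higher and 4 lower, among them 28 of the 30 constitutive genes (median 0.74), beside 23.4% and 24.9% of all genes. CFZ replicates 2 and 3 were also from another set than the controls, while replicate 1 shared their set, and it is singled out below for that reason.

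PSMC4 was at 85.84, 88.36 and 86.80 CPM under DMSO and at 197.9, 160.0 and 218.3 CPM with CFZ (1.16 ± 0.12, adjusted p = 0.000478, edgeR). The first CFZ value is the replicate from the controls' own set. PSMB2, a structural beta gene, rose by 0.94 ± 0.14 and PSMB5 by 0.67 ± 0.16. PSMB9 fell further, from 57.23, 64.26 and 66.15 CPM to 29.08, 13.67 and 32.68 CPM (-1.30 ± 0.25, adjusted p = 0.00683, edgeR). No CFZ library reached a control, and without replicate 2 the change was -1.03 ± 0.12. PSMB8 was also called lower (-0.69 ± 0.19). With a term for the set PSMB9 was at -1.11 ± 0.23 and passed, and PSMB8 was at -0.46 ± 0.22 and did not (adjusted p = 0.113, edgeR). Without that term the other member of the group, PSMB10, was at -0.21 ± 0.14 (adjusted p = 0.301, edgeR). The third member called lower was PSMG2, a 20S chaperone, at -0.57 ± 0.13.

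Whether the answer to CFZ changed between 6 h and 24 h was tested as a difference of the effects, for which 5 members were called against 19.6% of all genes. PSMB9 (-0.98 ± 0.27), PSMD12 (-0.64 ± 0.16), PSMG2, the partner of PSMG1 (-0.59 ± 0.16), and NFE2L1 (-0.73 ± 0.13) had lower effects at 24 h, and PSME3, a nuclear PA28 subunit, had a higher one (0.42 ± 0.12). Without replicate 2 the count was 18, of which 11 were higher and 7 lower, against 12.9% and 17.7% of all genes.

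Genes that work with the proteasome were called too. The shares of all genes called higher and lower with CFZ, against which these counts stand, were 14.1% and 12.8% at 6 h and 13.1% and 14% at 24 h. Of 18 proteasome-associated genes 9 were called higher and 1 lower at 6 h with CFZ (median 0.21), led by ZFAND2A, a stress-induced partner of the 19S cap, at 4.36 ± 0.097. USP14, a deubiquitinase of the 19S cap, rose by 0.89 ± 0.076. In AMO1 at 6 h the same 18 genes gave 7 higher and 1 lower with NCP26 (median 0.22), against 18.1% and 19.2% of all genes. With HFG they gave 9 higher and 3 lower (median 0.24), against 27.7% and 26.6%. With CFZ at 6 h, 4 of 5 ubiquitin genes were called higher, among them UBB at 1.28 ± 0.060. Of 13 genes that process or partner NFE2L1 or encode related factors, 6 were called higher and 1 lower with CFZ at 6 h. The related factors BACH1 (1.26 ± 0.10) and NFE2L3 (-0.62 ± 0.071) had the largest rise and the 1 fall. The higher genes included VCP, the ATPase that extracts NFE2L1 from the membrane, at 0.83 ± 0.061, and its cofactor NPLOC4 at 0.97 ± 0.071. MAFG, a binding partner of NFE2L1 on DNA, was at 0.84 ± 0.091. In AMO1 at 6 h these 13 genes gave 2 higher and 3 lower with NCP26 (median -0.04). For HFG the counts were 5 higher and 3 lower (median 0.05). The shares of all genes are those given above for each compound. VCP was at -0.84 ± 0.11 with NCP26 and -0.66 ± 0.068 with HFG. MAFG rose with both (0.40 ± 0.11 and 0.76 ± 0.094), as did BACH1 (0.85 ± 0.14 and 1.07 ± 0.11). With CFZ, 7 of 13 genes of MHC class I processing were called higher and 0 lower at 6 h (median 0.14). At 24 h with CFZ 3 of them were higher and 5 lower (median -0.31). At 6 h TAP1, the peptide transporter (0.47 ± 0.055), and IRF1, a factor of the interferon response (1.42 ± 0.085), were among the genes called higher. PSMB9 was lower at that time. At 24 h TAP1 fell by 1.17 on the log2 scale and IRF1 was at -1.03 ± 0.14, beside the falls of PSMB9 and PSMB8. The 3 genes called higher at 24 h were TAPBP (0.67 ± 0.21), HLA-B (0.53 ± 0.17) and HLA-C (0.67 ± 0.15). These 24 h values include CFZ replicate 2, which stood apart.

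NFE2L1 (ENSG00000082641, chr17:48048329-48061545) had its highest transcript levels with NCP26 and HFG. Over the 22 groups its mean level ran from 132.6 ± 3.33 CPM in L363-CFZr with halofuginol at 6 h to 993.1 ± 22.1 CPM in AMO1 with NCP26 at 24 h (SD, n = 3). The 8 highest groups were the 8 groups given NCP26 or HFG. With CFZ in AMO1 at 6 h it was at 455.4, 431.8 and 446.8 CPM. The DMSO libraries were at 356.7, 355.6 and 340.2 CPM (0.34 ± 0.062, adjusted p = 0.000282, edgeR). Against these same DMSO libraries NFE2L1 had a mean of 441.4 CPM with NCP22 and 420.4 CPM with halofuginol. At 24 h it was at 233.0, 291.9 and 234.6 CPM with CFZ and 325.4, 342.3 and 330.2 CPM under DMSO (-0.37 ± 0.13, adjusted p = 0.0641, edgeR). Without replicate 2 that difference was -0.50 ± 0.055 and passed (adjusted p = 2.6e-07, edgeR).

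**Figure D2:**
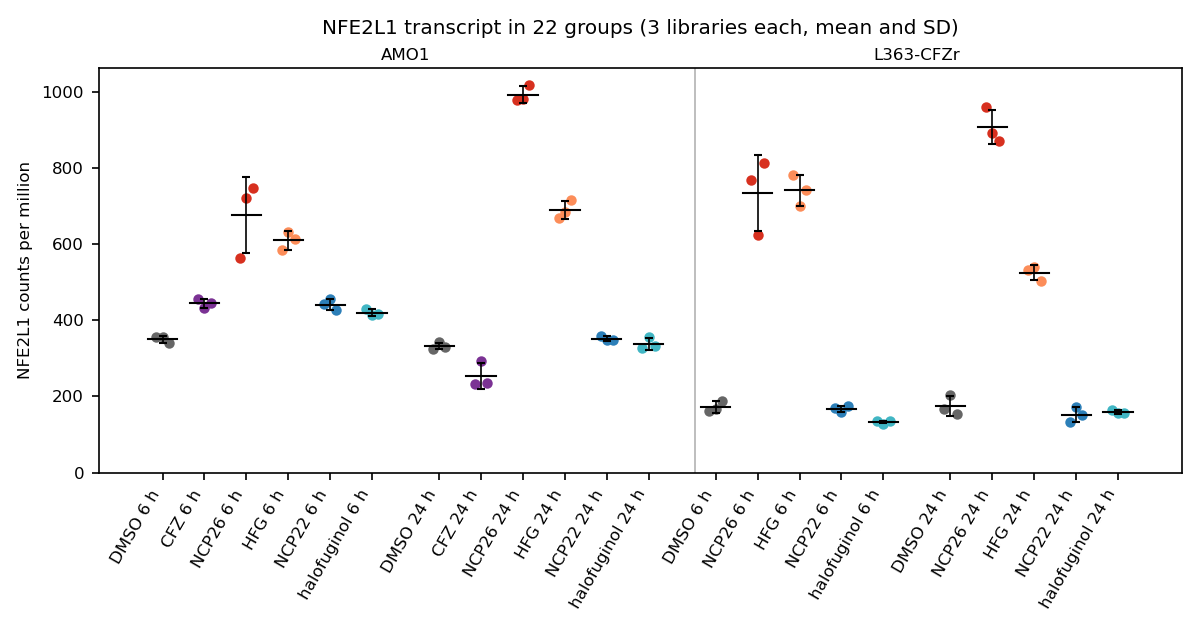
NFE2L1 transcript in CPM (y axis) in each of the 22 groups (x axis); points are the 3 libraries, lines the mean and SD. The 8 NCP26 and HFG groups lie between means of 525.3 and 993.1, above the other groups. The highest of these others are AMO1 with CFZ at 6 h, at 444.6, and AMO1 with NCP22 at 6 h, at 441.4.

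In AMO1 cells NCP26 brought NFE2L1 to 562.6, 722.3 and 746.6 CPM at 6 h (0.96 ± 0.12, adjusted p = 7.36e-05, edgeR) and to 979.3, 981.3 and 1019 CPM at 24 h (1.57 ± 0.042, adjusted p = 7.31e-24, edgeR). HFG brought it to 584.5, 633.0 and 612.5 CPM at 6 h (0.83 ± 0.063) and to 669.0, 685.9 and 715.6 CPM at 24 h (1.05 ± 0.046). The treated libraries of 24 h came from another set than their DMSO controls. A fit of all groups with a term for the set gave 1.40 ± 0.16 for NCP26 and 0.88 ± 0.16 for HFG at 24 h, and both passed. Between these sets the term rests on the AMO1 CFZ libraries of 24 h.

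In L363-CFZr the starting level was lower and the rise larger. NFE2L1 was at 161.2, 166.7 and 188.8 CPM under DMSO at 6 h and at 769.6, 623.3 and 813.2 CPM with NCP26 (2.11 ± 0.13, adjusted p = 2.17e-06, edgeR), all from 1 set. The effect of NCP26 at 6 h differed between the lines by 1.14 ± 0.17 on the log2 scale (adjusted p = 0.00128, edgeR), and NFE2L1 was the 1 member called in that test, against 2.71% of all genes. The levels reached with NCP26 at 6 h, 735.4 ± 99.5 CPM in L363-CFZr and 677.2 ± 100.0 CPM in AMO1, overlapped, while the DMSO libraries of the lines did not. At 24 h it reached 959.6, 893.3 and 872.1 CPM with NCP26 against 165.7, 204.9 and 153.7 CPM under DMSO, a ratio of means of 5.20 (2.39 ± 0.16, and 2.52 ± 0.077 without DMSO replicate 2). With HFG it was at 781.7, 701.4 and 742.5 CPM at 6 h (2.13 ± 0.065, across sets) and at 533.5, 539.3 and 503.2 CPM at 24 h (1.59 ± 0.15). The 24 h call was lost without any 1 of the HFG libraries (1.57 to 1.62) and held without DMSO replicate 2 (1.72 ± 0.060).

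With NCP26 and HFG at 6 h more subunit genes were called lower than higher, though with NCP26 in AMO1 the lower share lay near that of all genes. With NCP26 in AMO1 3 members were called higher and 11 lower, against 18.1% and 19.2% of all genes, and with HFG 4 were higher and 20 lower, against 27.7% and 26.6%. In either direction 28.6% of members were called with NCP26 and 49% with HFG, against 37.3% and 54.3% of all genes. The median member was at -0.03 and -0.17. Of the 30 constitutive genes 1 was called higher and 7 lower with NCP26, and 2 higher and 12 lower with HFG. Beside NFE2L1 the higher members were PSMD9 and PSMD14 with NCP26, and these and PSMD7 with HFG. In the 19S base 5 of 9 genes were called lower with each compound. The base ATPase gene PSMC3 was at 165.3, 182.7 and 155.6 CPM under DMSO, at 126.1, 114.5 and 131.7 CPM with NCP26 (-0.43 ± 0.10) and at 110.5, 118.3 and 115.1 CPM with HFG (-0.51 ± 0.081). No treated library reached its controls, and both changes passed, as they did for PSMD2, a scaffold of the base, at -0.53 ± 0.10 and -0.44 ± 0.067. These 2 comparisons share their DMSO libraries.

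PSME3 went from 218.5, 228.9 and 212.6 CPM to 157.9, 152.2 and 153.8 CPM with NCP26 (-0.50 ± 0.093) and to 146.2, 158.7 and 152.5 CPM with HFG (-0.49 ± 0.073). The other PA28 genes went the same way, PSME1 at -0.42 ± 0.098 and -0.56 ± 0.076 and PSME2 at -0.33 ± 0.12 and -0.39 ± 0.077, so all 3 passed with each compound. The alpha gene PSMA6 fell from 131.7 ± 3.75 CPM to 86.42 ± 2.998 CPM with HFG (-0.57 ± 0.078). PSMC4 changed by -0.46 ± 0.095 with NCP26 and by -0.23 ± 0.079 with HFG, against 1.17 with CFZ at the same time. Of the 3 immunoproteasome catalytic genes 1 was called lower with NCP26, PSMB8, and 3 with HFG (medians -0.17 and -0.27). Of the 3 constitutive catalytic genes 0 were called lower with NCP26 and 2 with HFG (medians -0.24 and -0.38).

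At 24 h the direction in AMO1 was mixed to upward. With NCP26 20 members were called higher and 13 lower (median 0.01), against 29.8% and 30.9% of all genes. With HFG 25 were higher and 7 lower (median 0.22), against 28.5% and 30.5%. The median changes were 0.55 and 0.60 for the base chaperones with NCP26 and HFG, 0.47 and 0.48 for the structural beta genes, of which 3 and 2 of 3 were called higher, and 0.41 and 0.30 for the lid. PSMD9, a chaperone of the base, was at 27.88, 27.64 and 28.27 CPM under DMSO, at 54.79, 43.70 and 48.27 CPM with NCP26 (0.80 ± 0.11) and at 46.18, 52.16 and 47.42 CPM with HFG (0.80 ± 0.11). The lid deubiquitinase PSMD14 went from 84.74, 86.47 and 81.19 CPM to 128.0, 126.9 and 123.9 CPM with NCP26 (0.58 ± 0.070) and to 141.3, 125.4 and 137.6 CPM with HFG (0.68 ± 0.072). All treated libraries exceeded all controls for both genes. In the lid 6 of 8 genes were called higher with each compound, PSMD7 by 0.76 ± 0.061 and 0.59 ± 0.069.

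The constitutive catalytic genes had medians of -0.08 and 0.22. PSMB5, PSMB6 and PSMB7 were at 0.02, -0.08 and -0.16 with NCP26, none of them past the threshold, and at 0.34, -0.25 and 0.22 with HFG, with PSMB5 and PSMB7 past it. PSMB8 was called lower with both, by -0.70 ± 0.079 and -0.36 ± 0.077. POMP rose with NCP26 (0.64 ± 0.071) and was at 0.13 ± 0.077 with HFG, while PSMG1 was called lower with both. These 24 h libraries were in another set than their DMSO controls, and the counts fell to 18 and 16 in the fit with a term for the set, in which PSME1 and PSME2 with NCP26 and PSMB8 and PSMG1 with HFG turned positive. In that fit PSMB8 (-0.30 ± 0.28) and PSMG1 (-0.09 ± 0.26) with NCP26 and PSMB5 (0.59 ± 0.28) and PSMB7 (0.56 ± 0.27) with HFG did not pass, while PSMD9 with both, PSMD7 and POMP with NCP26 and PSMD14 with HFG did. Between these sets that term is estimated from the AMO1 CFZ libraries of 24 h, of which replicate 2 stood apart. In the same set as these treated libraries, NCP22 and halofuginol gave 0 called members against those same DMSO libraries (medians of -0.02 and 0.01), as described below.

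In L363-CFZr at 6 h NCP26 gave 3 members higher and 7 lower, against 9.81% and 8.99% of all genes, all from 1 set. PSMC3 was at 227.6, 209.3 and 235.4 CPM under DMSO and at 166.3, 160.9 and 143.3 CPM with NCP26 (-0.49 ± 0.099), and PSME3 fell from 194.5 ± 8.10 CPM to 133.0 ± 4.83 CPM (-0.53 ± 0.092). PSMB9 was called higher (0.60 ± 0.17, adjusted p = 0.0334, edgeR), from 15.13, 16.36 and 14.39 CPM to 19.88, 27.44 and 20.81 CPM, and that call was lost without any 1 of the DMSO libraries (0.54 to 0.64). PSMG2 was the third, at 0.52 ± 0.13. Leaving out NCP26 replicate 2 raised the count to 26, 4 higher and 22 lower, against 18.2% and 18.4% of all genes in the same fit.

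HFG at 6 h gave 6 members higher and 23 lower, against 26.9% and 27.5% of all genes, with 16 of 30 constitutive genes lower and 2 higher. PSMC3 was at 143.7, 137.6 and 155.1 CPM (-0.59 ± 0.068) and PSME3 at 134.6, 133.0 and 127.9 CPM (-0.53 ± 0.066). This comparison crossed sets, and with a term for the set 7 members were called, PSME3 (-0.73 ± 0.12) among them and PSMC3 (-0.60 ± 0.24, adjusted p = 0.0656, edgeR) not.

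At 24 h in L363-CFZr with NCP26, 1 member was called higher and 1 lower, against 2.71% and 4.38% of all genes. Beside NFE2L1 this was PSME4, at 196.1, 267.3 and 185.5 CPM under DMSO and 115.0, 117.6 and 118.3 CPM with NCP26 (-0.87 ± 0.16). With HFG only NFE2L1 was called, 1 higher and 0 lower, against 0.592% and 0.573%, with PSME4 at 126.3, 127.4 and 130.2 CPM (-0.76 ± 0.16, adjusted p = 0.0829, edgeR). At an unadjusted p below 0.05 there were 4 members in each of the 2 comparisons, and DESeq2 called 2 with HFG. Without DMSO replicate 2, which stood apart, the counts were 2 higher and 9 lower with NCP26 (13.1% and 15.5% of all genes) and 9 higher and 1 lower with HFG (9.34% and 10.2%). PSME4 then passed in both, at -0.70 ± 0.076 and -0.57 ± 0.061. PSMB9 was at 0.49 ± 0.20 with NCP26 and passed with HFG at 0.77 ± 0.18.

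**Figure D3:**
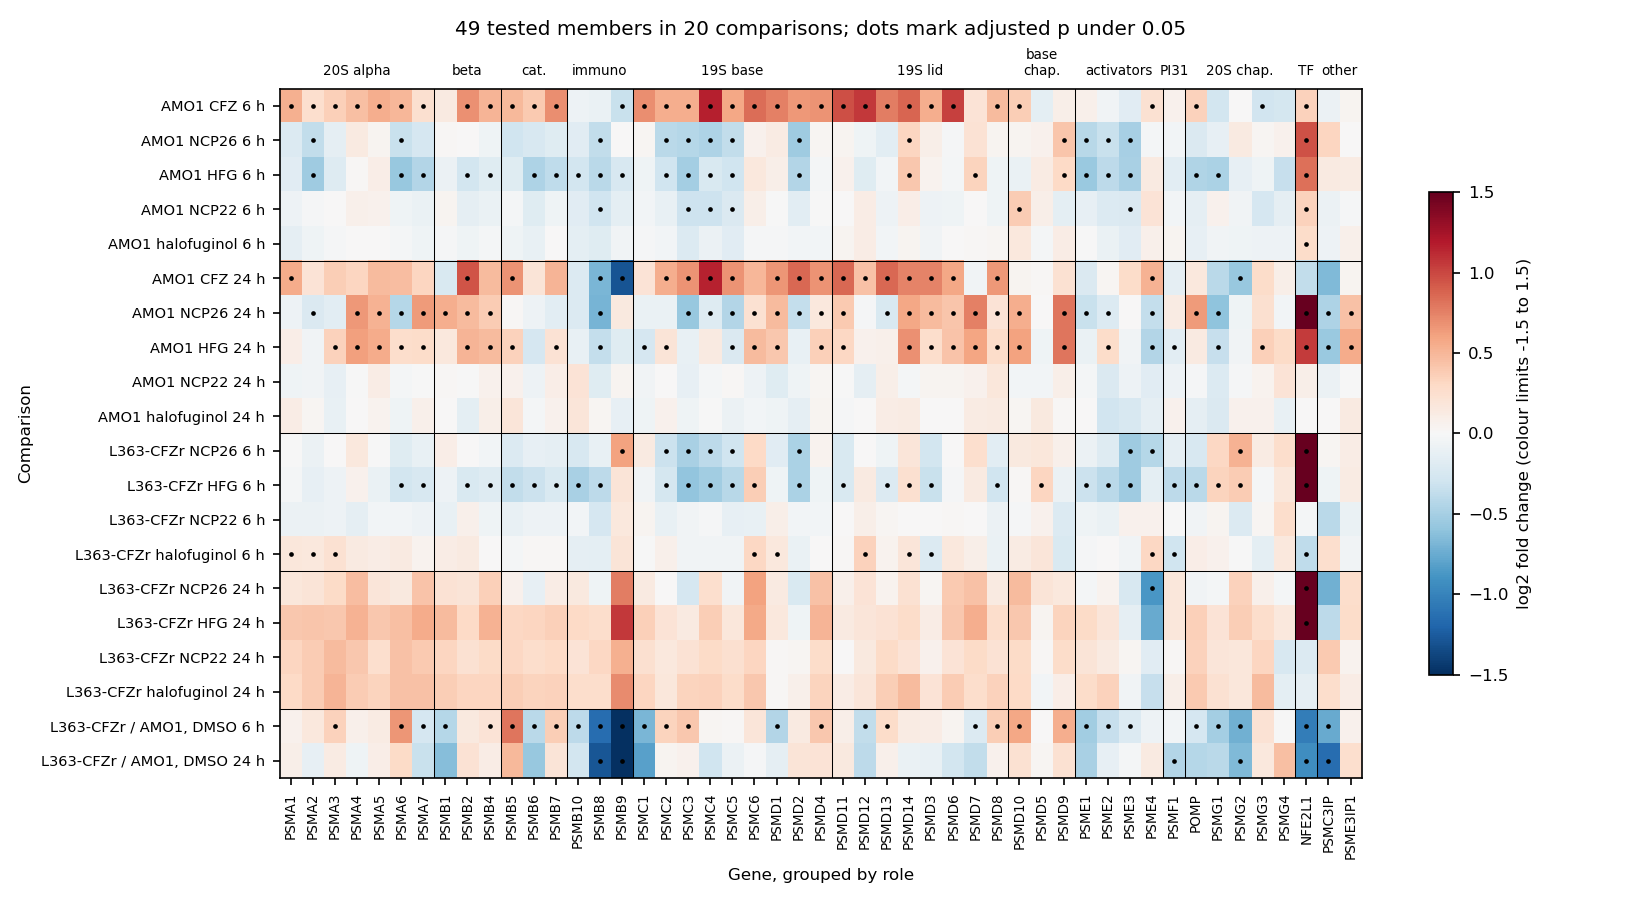
Log2 fold change (colour, limits -1.5 to 1.5) of the 49 tested genes (x axis, by role) in 20 comparisons (y axis), dots marking adjusted p under 0.05. All 30 tested 20S and 19S genes are above 0 with CFZ at 6 h and 28 at 24 h, NFE2L1 is at or past the red limit with NCP26 at 24 h in AMO1 and with NCP26 and HFG at both times in L363-CFZr, and PSMB8 and PSMB9 are dark blue where untreated L363-CFZr is set against AMO1.

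With NCP22 and halofuginol the shares of members called lay near those of all genes in AMO1 at 6 h. In AMO1 at 6 h NCP22 gave 2 members higher and 5 lower, against 7.42% and 6.08% of all genes, and halofuginol gave 1 higher and 0 lower, against 2.6% and 1.02%. That 1 gene was NFE2L1, at 430.2, 413.3 and 417.8 CPM (0.27 ± 0.059), and the call was lost without DMSO replicate 2 or any of the 3 halofuginol libraries (0.25 to 0.29). With NCP22 it was at 442.5, 455.7 and 426.0 CPM (0.34 ± 0.062), beside PSMD10 at 0.38 ± 0.10, and the lower members were PSMC3 (-0.31 ± 0.079), PSMC4, PSMC5, PSMB8 and PSME3. At 24 h NCP22 (0% and 0% of all genes) and halofuginol (0.0731% and 0.11%) gave 0 members in AMO1 by edgeR and by DESeq2, with 3 and 2 members at an unadjusted p below 0.05.

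In L363-CFZr NCP22 gave 0 members at 6 h (0% and 0% of all genes) and at 24 h (0% and 0%), and halofuginol gave 0 at 24 h (0% and 0%), by edgeR and by DESeq2. Members at an unadjusted p below 0.05 numbered 1, 0 and 2 in these 3 comparisons. The medians of 0.24 and 0.32 at 24 h came down to 0.02 and 0.07 without DMSO replicate 2. Halofuginol at 6 h, which crossed sets, gave 8 members higher and 3 lower, against 13.6% and 12.2% of all genes. PSMD12 was at 98.03, 79.77 and 85.93 CPM under DMSO and at 106.2, 114.8 and 113.8 CPM with halofuginol (0.35 ± 0.077), PSMC6 was at 0.31 ± 0.072, and NFE2L1 was lower, beside PSMD3 and PSMF1, at 134.8, 128.7 and 134.2 CPM (-0.38 ± 0.065). With a term for the set PSMD12 (0.33 ± 0.19, adjusted p = 0.338), PSMC6 (0.47 ± 0.27, adjusted p = 0.332) and NFE2L1 (-0.48 ± 0.17, adjusted p = 0.0942, edgeR) did not pass, and with a GC content offset PSMC6 was at -0.04.

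NCP26 was also set against NCP22, and HFG against halofuginol, at the same dose, time and line, 8 comparisons in all. HFG and halofuginol are derivatives of febrifugine, and NCP26 carries a piperidinyl ring where NCP22 has a cyclohexyl group. NFE2L1 was higher with NCP26 or HFG in 8 of 8 comparisons and had the largest change of any called member in each. For NCP26 against NCP22 the log2 differences were 0.64 ± 0.11 at 6 h and 1.51 ± 0.060 at 24 h in AMO1, and 2.14 ± 0.13 and 2.58 ± 0.097 in L363-CFZr. For HFG against halofuginol they were 0.56 ± 0.049 and 1.05 ± 0.059 in AMO1, and 2.52 ± 0.045 and 1.72 ± 0.056 in L363-CFZr. The largest of the 8 adjusted p-values was 0.00169 (edgeR).

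**Figure D4:**
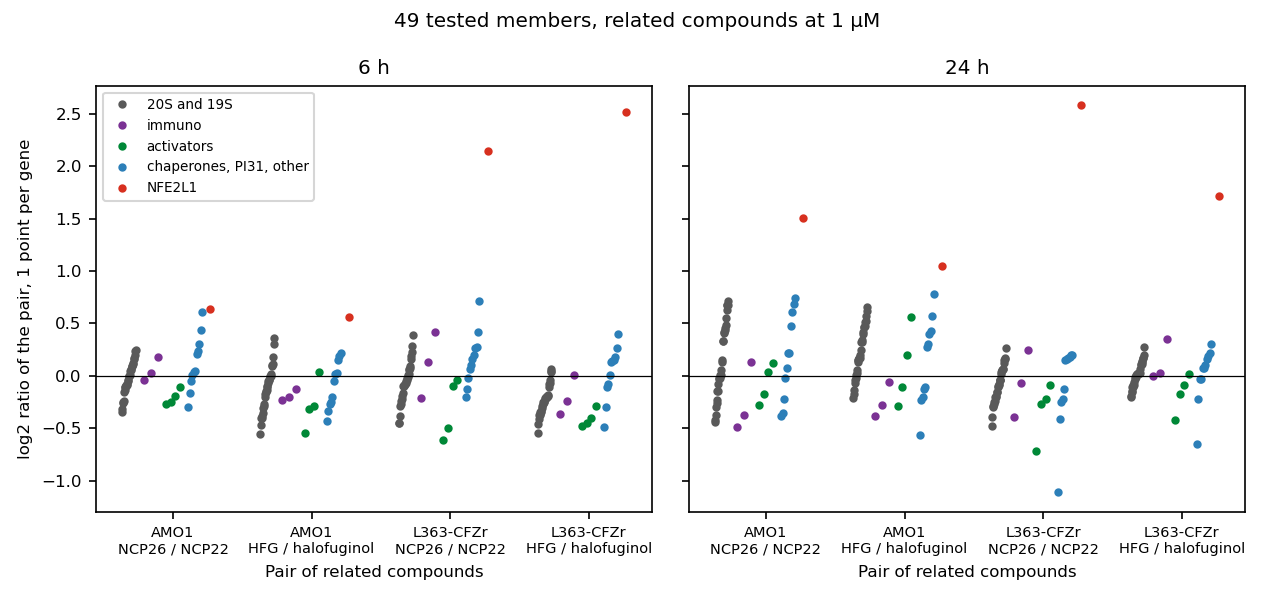
Log2 ratio of NCP26 to NCP22 and of HFG to halofuginol (y axis) for the 49 tested genes, 1 point per gene, at 6 h (left) and 24 h (right), by pair and cell line (x axis) and coloured by role. NFE2L1 (red) is the highest point in each pair, from 0.56 to 2.58, while the 20S and 19S genes (grey) lie on both sides of 0.

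The subunit genes differed within pairs too, by less. For NCP26 against NCP22 6 members were called at 6 h (24.7% of all genes in either direction) and 28 at 24 h (52%) in AMO1, and 8 (20.4%) and 13 (34.1%) in L363-CFZr. For HFG against halofuginol the counts were 23 (51.7%) and 27 (56.6%) in AMO1 and 35 (47.3%) and 4 (21.9%) in L363-CFZr. Both AMO1 pairs of 24 h and the HFG pair of L363-CFZr at 6 h lie within 1 set, unlike the comparisons with DMSO. In that last pair 24 of 30 constitutive genes were lower with HFG and 0 higher (median -0.23). Among all 10581 genes tested there, 2556 were called lower and 2444 higher. PSMB5 (-0.34 ± 0.054) and PSMC4 (-0.46 ± 0.055) were among the 24. PSMB5 did not pass for HFG against halofuginol in AMO1 at 24 h (0.17, 95% interval -0.01 to 0.35) or for NCP26 against NCP22 (-0.03, -0.23 to 0.17).

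The untreated lines were compared next, L363-CFZr against AMO1 under DMSO, which crossed sets at both times. The clearest difference was in the immunoproteasome. At 6 h PSMB9 was at 15.13, 16.36 and 14.39 CPM in L363-CFZr and at 109.1, 105.7 and 103.8 CPM in AMO1, a ratio of means of 0.144 (-2.83 ± 0.12, adjusted p = 2.49e-14, edgeR). PSMB8 was at 79.28, 78.75 and 81.85 CPM against 177.5, 173.9 and 168.3 CPM (-1.14 ± 0.081), and PSMB10 was lower by less (-0.39 ± 0.10). At 24 h PSMB9 (-2.72 ± 0.28) and PSMB8 (-1.28 ± 0.24) were again called, and PSMB10 was not (-0.27 ± 0.15). Without DMSO replicate 2 of L363-CFZr they were at -2.46 ± 0.14 and -1.04 ± 0.087.

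The constitutive catalytic genes went different ways. PSMB5 was higher in L363-CFZr at 6 h, at 159.9, 132.6 and 155.7 CPM against 80.01, 93.10 and 81.51 CPM (0.80 ± 0.095, adjusted p = 3.63e-07, edgeR). PSMB7 was higher by 0.37 ± 0.082 and PSMB6 lower by 0.41 on the log2 scale (-0.41 ± 0.090). With a term for the set PSMB9 (-2.48 ± 0.31), PSMB8 (-0.73 ± 0.28), PSMB5 (1.06 ± 0.27) and PSMB7 (0.72 ± 0.27) passed at 6 h, and PSMB6 (-0.14 ± 0.30, adjusted p = 0.757) and PSMB10 (-0.23 ± 0.25, adjusted p = 0.509, edgeR) did not. At 24 h PSMB5 was at 105.2, 58.32 and 116.5 CPM against 63.10, 66.86 and 69.96 CPM, with replicate 2 alone below the AMO1 libraries (0.49 ± 0.23, adjusted p = 0.134, edgeR; 0.71 ± 0.084 without it, adjusted p = 1.5e-08). NFE2L1 was lower at 6 h (-1.04 ± 0.074) and at 24 h (-0.93 ± 0.15), and in the fit with a term for the set it was at -1.20 and -1.21 and passed.

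Over all members 12 were higher and 18 lower in L363-CFZr at 6 h, against 28.9% and 31.3% of all genes, and the median was 0.04. Of the 30 constitutive genes 10 were higher and 7 lower. Among all members PSMA6 (0.66 ± 0.077), PSMD10 (0.58 ± 0.10) and PSMD9 (0.54 ± 0.11) were higher, and PSMG1 (-0.51 ± 0.13), PSMG2 (-0.72 ± 0.10) and POMP (-0.25 ± 0.085), all 20S assembly factors, were lower. PSME1 (-0.52 ± 0.071) and PSME2 (-0.35 ± 0.079) were lower. With a term for the set 11 members were called, PSME1 (-0.16 ± 0.22) was not among them, and PSME2, POMP and PSMG1 turned slightly positive. At 24 h 0 were higher and 6 lower, against 19.4% and 20.5%, and without DMSO replicate 2 the count was 25 higher and 12 lower, against 31.5% and 33.4%. PSMC3IP, a recombination factor that shares only the prefix, was 1 of the 6 (-1.14 ± 0.24).

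Most genes of MHC class I processing lay beside PSMB9 and PSMB8 in this comparison. Of 13, 9 were lower and 2 higher in L363-CFZr at 6 h, against 31.3% and 28.9% of all genes. At 24 h 8 were lower and 1 higher, against 20.5% and 19.4%, with a median of -0.92 at both times. Both comparisons crossed sets, and that of 24 h includes L363-CFZr DMSO replicate 2, which stood apart. At 6 h TAP1, which shares a promoter region with PSMB9, was at -2.42 ± 0.071, and the interferon factor IRF1 was at -2.88 ± 0.16. PSMB9, PSMB8 and these genes are known as interferon targets, and the part of IRF1 in the difference was not tested.

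To set the 2 kinds of catalytic subunit side by side, counts were divided by transcript length, and the share of PSMB8, PSMB9 and PSMB10 in the sum of all 6 was taken, as a description with no test. Under DMSO this share was 48.9%, 46% and 46.8% in the AMO1 libraries of 6 h and 24.7%, 27.6% and 26.7% in those of L363-CFZr. At 24 h it was 48.3% ± 1.88 and 30.6% ± 3.24 (SD, n = 3). With CFZ it went to 34.8%, 34.9% and 37.2% at 6 h and to 30.6%, 31.7% and 29.9% at 24 h, against 29.8%, 34.1% and 27.7% in untreated L363-CFZr at 24 h. The CFZ libraries of 24 h lay within that range, but above both other libraries when L363-CFZr DMSO replicate 2 (34.1%), which stood apart, was left out.

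The 3 exchangeable pairs contributed in different measure. Per kilobase, PSMB8 stood to PSMB5 as 1.90 ± 0.163 in AMO1 under DMSO at 6 h, as 1.25 ± 0.166 with CFZ and as 0.5 ± 0.0467 in untreated L363-CFZr. PSMB9 stood to PSMB6 as 0.597 ± 0.0623, 0.359 ± 0.0438 and 0.113 ± 0.0173. PSMB10 stood to PSMB7 as 0.709 ± 0.0357, 0.415 ± 0.0485 and 0.420 ± 0.0383, so this pair was alike in AMO1 with CFZ and in L363-CFZr. Transcripts only were measured, and the subunits built into proteasomes were not. With NCP26 and HFG the mean share lay between 44.7% and 48.1% in AMO1 except for HFG at 24 h (43% ± 2.13), and between 25.2% and 31.2% in L363-CFZr.

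Over the 66 libraries, the genes outside this family whose log2 CPM went most with the mean of the 30 constitutive genes were NUDC, a chaperone partner (Pearson r = 0.92), DAP3, a protein of the mitochondrial ribosome (0.91), and HARS1, the histidyl-tRNA synthetase (0.89), among 8776 genes with at least 10 counts in every library. The libraries share cell lines, sets and treatments, so this is a description. Some counts could be shared with copies elsewhere: 31 of the 51 genes had over 5% of their 31-base words in another gene, and 15 had over 5% in genes that were counted. PSMC1 with NRDE2, PSMB8 with its antisense gene PSMB8-AS1, and PSMC3IP with MLX were among the 31. The values of these 3 are uncertain, as are the shares and ratios above that include PSMB8, and those of the other genes may be.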

How the data were processed

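Total RNA of 66 cell pellets was sequenced after polyA selection with a directional kit. The deposited table holds raw counts per gene, which the authors made from their reads. The submitters' processing notes name kallisto and the build hg19, the study's methods name GRCh38, and a version is not given in the sources used here. Library totals were 1666325 to 6596543 counts, so genes with few counts carry the largest errors.

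Genes were named with GENCODE release 44 (95.7% of 20167 identifiers had a name), and PSMB3's identifier was not matched. Each comparison was fitted on the libraries of its own groups with edgeR 4.0.16 in R 4.3.3 (TMM scaling, filterByExpr at its settings of 10 counts and 15 in total, quasi-likelihood F test, Benjamini-Hochberg adjustment over all genes tested, threshold 0.05). Errors of log2 changes are SE. Levels are CPM scaled by TMM over all 66 libraries, divided by transcript length only for the catalytic subunits. The fit was tested on simulated counts. Replicates were compared before use: of 66 pairs within groups 0 were identical.

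Genes were named by this rule: PSMB5 to PSMB10, PSME1, PSME2, PSMD4, PSMA3, PSMC4, PSMD12, POMP, PSMG1 and NFE2L1; the 3 called members with the largest change in each comparison with DMSO or between lines, and the 1 largest in the others; members removed by the filter; and the 3 genes most correlated with the constitutive subunits. Other members were named after their values were seen. The members and the lists of related genes (proteasome-associated, NFE2L1 processing, ubiquitin supply, MHC class I processing, cell markers) were chosen with earlier results of these data known. Alternatives were DESeq2 1.42.0, other scalings and filters, a GC content offset, 1 fit of all 22 groups with and without a term for the set, a replicate block, and leaving out each library.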

Additional observations from a re-analysis of the deposited data

Results flagged for a closer look

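In AMO1 the effect of CFZ at 24 h differed from that at 6 h by a test of the difference itself for 5 members, 10.2% of those tested against 19.6% of all genes (edgeR quasi-likelihood test, 3 libraries in each of 4 groups). The log2 differences, 24 h minus 6 h, were -0.98 ± 0.27 for PSMB9 (adjusted p = 0.0213), -0.64 ± 0.16 for PSMD12 (adjusted p = 0.0114), -0.59 ± 0.16 for PSMG2 (adjusted p = 0.02), -0.73 ± 0.13 for NFE2L1 (adjusted p = 0.00199) and 0.42 ± 0.12 for PSME3 (adjusted p = 0.0222). Without CFZ replicate 2 of 24 h, which stood apart, PSMB9 was at -0.71 and NFE2L1 at -0.85. Time, storage of the pellets and, for 2 of the 3 CFZ libraries of 24 h, the library set cannot be told apart in these differences.

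The effect of NCP26 at 6 h on NFE2L1 differed between the lines, L363-CFZr minus AMO1, by 1.14 ± 0.17 on the log2 scale (adjusted p = 0.00128, edgeR). Leaving out 1 library at a time gave 1.01 to 1.25.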

How the results depend on the processing

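Of 1773 values of named members under alternatives, 1557 kept direction and side of the threshold, 207 kept direction only and 9 turned, and of 352 counts of called members 279 stayed within 1.5 times. The cause of the moves was not tested, and the term for the set rests on the 2 groups that span sets. A term for the set turned PSME1 to 0.01 and PSME2 to 0.17 (AMO1 NCP26, 24 h), PSMB8 to 0.03 and PSMG1 to 0.16 (AMO1 HFG, 24 h), PSME2 to 0.04, POMP to 0.02 and PSMG1 to 0.03 (lines, 6 h) and PSMC3IP to 0.13 (lines, 24 h), and the GC content offset turned PSMC6 to -0.04 (L363-CFZr halofuginol, 6 h). With the set term the called members were, in AMO1, 2 (NCP22 6 h), 0 (halofuginol 6 h), 18 (NCP26 24 h) and 16 (HFG 24 h), in L363-CFZr 7 (HFG 6 h), 0 (halofuginol 6 h), 13 (NCP26 24 h) and 16 (HFG 24 h), and 11 between lines at 6 h. In 1 fit of 22 groups they were 2, 0 and 20 (AMO1 NCP22 6 h, halofuginol 6 h, HFG 24 h), 3, 13 and 16 (L363-CFZr halofuginol 6 h, NCP26 24 h, HFG 24 h) and 19 between lines at 24 h. The GC content offset gave 3 (AMO1 halofuginol 6 h) and 2 (L363-CFZr halofuginol 6 h), and DESeq2 gave 2 (L363-CFZr HFG 24 h) and 7 (L363-CFZr NCP26 against NCP22, 24 h). Deviations of same-numbered libraries had correlations of -0.324 to 0.285. With 3 libraries in a group such values cannot exclude that the numbers pair them. The replicate block gave 4 and 1 (L363-CFZr NCP26, 6 h and 24 h), 7 (L363-CFZr NCP26 against NCP22, 24 h) and 3 (CFZ effect, 24 h minus 6 h). Without division by length the immunoproteasome share was 50.3% and 51.3% (AMO1 DMSO, 6 h and 24 h), 28% (L363-CFZr DMSO, 6 h), 38.4% and 32.9% (AMO1 CFZ, 6 h and 24 h).

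Leaving out 1 library at a time gave 8 to 20 called members for AMO1 NCP26 at 6 h (8 without DMSO replicate 2), 2 to 9 for NCP22 and 0 to 4 for halofuginol. The range was 8 to 38 for AMO1 CFZ at 24 h (8 to 10 without a DMSO library, 13 without CFZ replicate 1, 38 without replicate 2) and 2 to 18 for the difference of its effects. In L363-CFZr it was 4 to 26 (NCP26 6 h), 5 to 12 (halofuginol 6 h), 1 to 11 (NCP26 24 h) and 0 to 10 (HFG 24 h), and 4 to 37 between lines at 24 h. For NCP26 against NCP22 it was 2 to 15 (AMO1 6 h, 15 without NCP26 replicate 1), 3 to 19 (L363-CFZr 6 h, 19 without NCP26 replicate 2) and 8 to 11 (L363-CFZr 24 h).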
